A study of Mus musculus with 8 samples.

Results

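The Hox gene clusters are followed here as accessible chromatin, meaning DNA open to the Tn5 transposase, near 38 listed Hox genes of the 4 mouse clusters. A peak was a member when its summit had 1 of these genes as the nearest protein-coding gene within 100 kb, on the RefSeq gene intervals of mm10. By this rule 106 of 172983 peaks were members. Overlapping peaks of a list were merged, which left 91 of 121250 accessible regions. The rule uses position alone, so the height of a peak and its presence in a given list played no part in the choice. Genes nested inside another gene, as Hoxa4 and Hoxa5 are inside the long Hoxa3 interval, took the summits that lay within them.

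Hox genes encode homeodomain transcription factors that give cells along the body axis their regional identity. Each cluster runs from anterior to posterior paralogues in the order in which the genes are switched on in the embryo, under retinoic acid, Wnt and Fgf signals, and Polycomb and Trithorax complexes keep the silent and the active parts apart. In the developing heart, anterior Hox genes mark a posterior subset of second heart field progenitors that contributes to the outflow tract and atria, while posterior Hox genes pattern the trunk, limbs and genital tubercle. Paralogue groups 1 to 4 are called anterior here (11 genes), groups 5 to 8 central (11 genes) and groups 9 to 13 posterior (16 genes).

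The study mapped open chromatin by ATAC-seq in cardiac progenitor cells grown from mouse embryonic stem cells of the line GLI1-FTA, strain A2Lox.cre, with 150000 cells collected for a library. The D7 GLI1 group (3 libraries) received 500 ng/ml doxycycline for 48 hours between D5 and D7 to overexpress GLI1, a zinc finger transcription factor through which Hedgehog signals reach their genes. The D7 control group (3 libraries) and the D5 control group (2 libraries) were labelled untreated, so the controls carried the same line without doxycycline and no group shows the effect of doxycycline by itself. All groups come from 1 line in culture, with no embryo tissue beside it. Each group is represented by 1 pooled peak list. The D7 control list was recognised as D7 by inference, from its name pairing with that of the doxycycline list and from D5 having its own. With 1 list per group there is no replicate spread, so no difference below has a test, and shares carry Wilson 95% intervals that cover counting error only.

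Gli1 itself was nearest to 8 regions in the D7 GLI1 list, with folds up to 31.9, against 4 regions and folds up to 13.3 in the D7 control list. Fold here is the peak caller's enrichment of a peak over background, and it is the authors' own value for each peak. Of 10 cardiac progenitor markers, 9 had a region in the D7 GLI1 list, 10 in the D7 control list and 9 at D5, the gene without one in the D7 GLI1 and D5 lists being Tnnt2. Markers of other cell types had regions too: all 7 neural genes in each list, 5, 5 and 4 of 5 endoderm genes in the D7 GLI1, D7 control and D5 lists, and 2, 3 and 3 of 4 pluripotency genes in the same order. Paraxial mesoderm markers had regions at 4, 4 and 5 of 5 genes, and so did endothelial and blood markers. Regions near endoderm markers numbered 29 in the D7 GLI1 list against 13 in the D7 control list, and those near endothelial and blood markers 28 in the D7 GLI1 list against 15 in the D7 control list. The part of such cells in any Hox region was not tested.

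Promoter sequences are shown for the Hox starts that lay in open chromatin and for a pair that did not, since the results on promoters turn on which starts were open and on their CpG content. Of the 38 genes, 22 had entries in the RefSeq promoter table (build GRCm38.p6, the same as mm10), with 24 windows of 250 bases before to 50 bases after a transcription start. Capitals mark CG dinucleotides, each sequence runs 5′ to 3′ along the gene, and the first 5 are the windows that overlapped a region in at least 1 list. Hoxa13, Hoxd1 and Hoxd13 overlapped a region in all 3 lists, Hoxd10 in both D7 lists, and Hoxa5 in the D7 control and D5 lists.
Hoxa13 (chr6:52260831-52261130, minus strand): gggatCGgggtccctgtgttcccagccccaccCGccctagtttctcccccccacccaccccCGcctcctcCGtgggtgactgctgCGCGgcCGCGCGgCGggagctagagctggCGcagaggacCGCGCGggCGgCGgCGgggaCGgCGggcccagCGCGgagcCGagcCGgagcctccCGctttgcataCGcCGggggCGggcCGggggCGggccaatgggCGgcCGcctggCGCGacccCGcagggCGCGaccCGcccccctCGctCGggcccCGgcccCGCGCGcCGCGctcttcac
Hoxd13 (chr2:74667975-74668274, plus strand): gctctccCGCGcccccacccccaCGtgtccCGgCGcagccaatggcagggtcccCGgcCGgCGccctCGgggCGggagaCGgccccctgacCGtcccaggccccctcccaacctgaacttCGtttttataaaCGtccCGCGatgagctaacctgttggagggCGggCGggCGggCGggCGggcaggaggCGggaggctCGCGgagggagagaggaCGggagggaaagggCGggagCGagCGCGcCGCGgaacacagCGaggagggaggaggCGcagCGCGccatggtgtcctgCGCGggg
Hoxd10 (chr2:74691641-74691940, plus strand): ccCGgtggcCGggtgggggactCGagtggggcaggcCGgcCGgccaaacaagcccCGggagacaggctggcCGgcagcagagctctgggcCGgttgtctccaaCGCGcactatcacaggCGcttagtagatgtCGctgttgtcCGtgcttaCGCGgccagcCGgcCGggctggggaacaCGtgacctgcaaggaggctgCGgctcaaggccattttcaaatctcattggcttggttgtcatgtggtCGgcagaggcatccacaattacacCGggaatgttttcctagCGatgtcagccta
Hoxd1 (chr2:74762730-74763029, plus strand): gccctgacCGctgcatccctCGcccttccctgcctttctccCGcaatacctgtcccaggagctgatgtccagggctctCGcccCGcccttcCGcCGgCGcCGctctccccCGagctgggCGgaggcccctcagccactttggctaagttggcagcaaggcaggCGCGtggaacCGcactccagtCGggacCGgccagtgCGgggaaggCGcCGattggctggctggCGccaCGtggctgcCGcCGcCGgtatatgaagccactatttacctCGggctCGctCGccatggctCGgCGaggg
Hoxa5 (chr6:52204538-52204837, minus strand): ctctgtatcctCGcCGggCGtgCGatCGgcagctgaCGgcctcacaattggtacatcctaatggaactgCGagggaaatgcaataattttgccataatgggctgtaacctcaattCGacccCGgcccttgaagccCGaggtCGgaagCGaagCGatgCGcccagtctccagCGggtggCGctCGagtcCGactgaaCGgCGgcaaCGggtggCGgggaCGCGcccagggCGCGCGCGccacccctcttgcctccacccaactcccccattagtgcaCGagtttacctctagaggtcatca
The remaining pair, Hoxb1 and Hoxa9, had no region over the window in any list.
Hoxb1 (chr11:96365508-96365807, plus strand): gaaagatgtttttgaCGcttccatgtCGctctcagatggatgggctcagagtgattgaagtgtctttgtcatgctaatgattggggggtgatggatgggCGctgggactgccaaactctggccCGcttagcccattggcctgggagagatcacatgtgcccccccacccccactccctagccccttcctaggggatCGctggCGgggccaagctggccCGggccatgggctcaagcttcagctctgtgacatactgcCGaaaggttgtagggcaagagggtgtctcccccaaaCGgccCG
Hoxa9 (chr6:52227321-52227620, minus strand): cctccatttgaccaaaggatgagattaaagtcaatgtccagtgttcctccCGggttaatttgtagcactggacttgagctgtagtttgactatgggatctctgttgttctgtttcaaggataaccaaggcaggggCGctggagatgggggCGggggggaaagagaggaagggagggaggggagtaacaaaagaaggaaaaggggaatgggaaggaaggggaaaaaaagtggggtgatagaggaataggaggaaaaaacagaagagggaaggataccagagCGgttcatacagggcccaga
The Hoxa13 window held 45 CG dinucleotides and the Hoxd13 window 37, whereas the Hoxb1 window held 10 and the Hoxa9 window 4. Across the 5 open windows the CpG ratio, observed over expected from base content, ran between 0.754 and 1.02 with a median of 0.904. In the 19 windows without a region it ran between 0.257 and 0.970 with a median of 0.589, so the ranges overlapped.

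Hox promoters were open less often than promoters in general. A region overlapped 4 of 24 Hox windows in the D7 GLI1 list (16.7%, interval 6.68 to 35.9), 5 in the D7 control list (20.8%, 9.24 to 40.5) and 4 at D5 (16.7%). Over all 21263 windows of protein-coding genes the shares were 56.7%, 55.3% and 53.0% in the same order, above each Hox interval. The shares were also apart among CpG-rich windows. Of the 12 Hox windows with a CpG ratio of at least 0.6, a region overlapped 4 in the D7 GLI1 list (33.3%, 13.8 to 60.9), 5 in the D7 control list and 4 at D5, against 91.8%, 90.5% and 88.3% of the 10137 such windows in the genome. None of the 12 Hox windows under that ratio held a region in any list, which allows a share of up to 24.2% by the Wilson interval. A wider look at gene starts and ends, within 250 bp of either and for all 38 genes, gave 8 genes with a region in the D7 GLI1 list (21.1%), 7 in the D7 control list (18.4%) and 11 at D5 (28.9%), while all genes gave 55.1%, 53.5% and 51.3%. The plot of promoter windows sets these shares side by side.

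**Figure D1:**
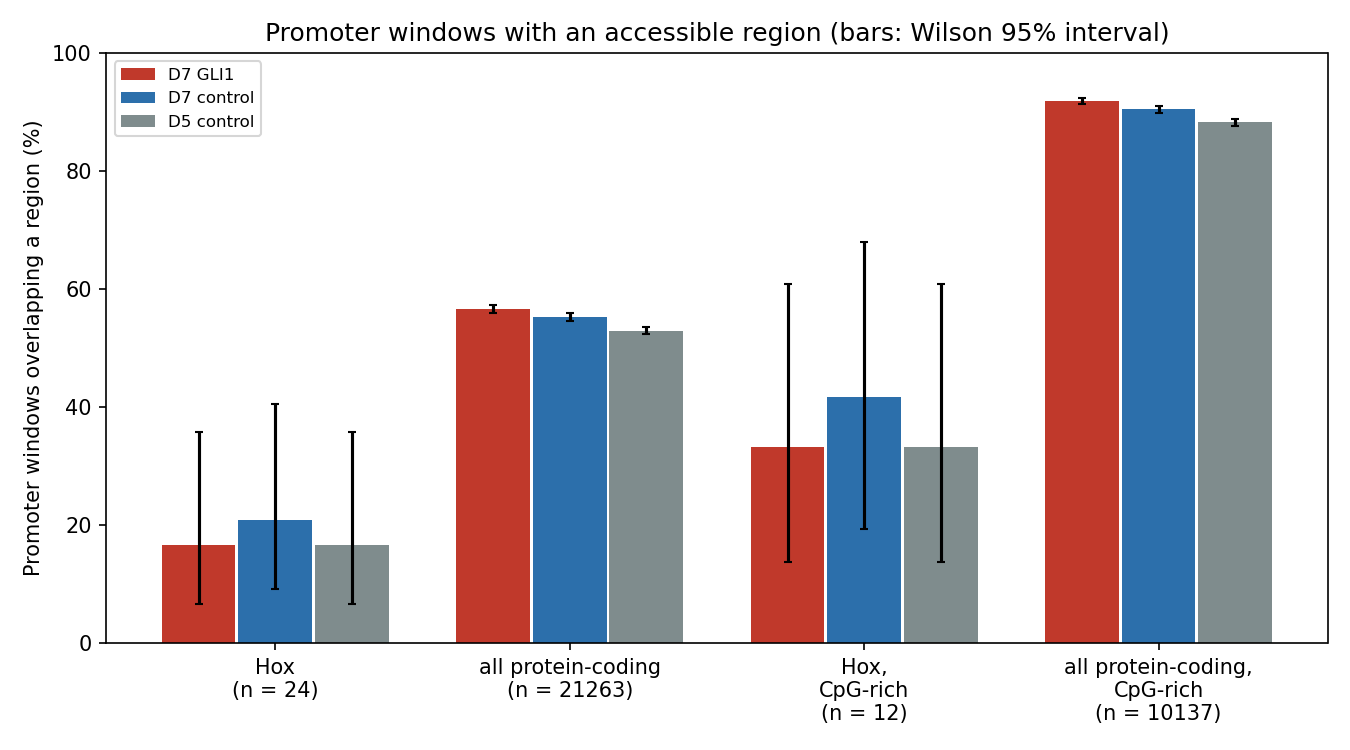
Share of 300-base promoter windows that overlapped an accessible region (y axis, percent) for Hox genes and all protein-coding genes, in the D7 GLI1, D7 control and D5 control lists; the right-hand sets hold only windows with a CpG ratio of at least 0.6, and bars are Wilson 95% intervals. Hox windows reached 16.7% to 20.8%, and 33.3% to 41.7% when CpG-rich, while CpG-rich windows of all genes were near 90.5%.

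Short sequence matches in the windows were counted on both strands as letters only. The GLI consensus GACCACCCA was in 0 of 24 Hox windows and in 38 of all windows (0.179%). The Pbx-Hox letters TGATNNAT, the joint site of Hox proteins and their Pbx partners, were in 4 of 24 Hox windows (16.7%) and in 7.45% of all windows. These were in the Hoxb1 window, with TGATGGAT from position -162 counted with the start site as 0, in the Hoxa2 window from -111, in a Hoxd11 window from -73 and in the Hoxb8 window from -11. None of those windows held a region in any list. The CCAAT box, a common promoter element, was in 15 of 24 Hox windows (62.5%) and 38.2% of all. No match of TGATNNAT overlaps a GLI match, since there was none.

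Accessible regions were few per Hox gene and mostly low. The D7 GLI1 list held 38 Hox regions among 43043, the D7 control list 29 among 38771 and the D5 list 24 among 39436. They came to 1 region per Hox gene in the D7 GLI1 list, 0.763 in the D7 control list and 0.632 at D5, against 1.79, 1.62 and 1.59 for protein-coding genes in general. At least 1 region was assigned to 20 of 38 Hox genes (52.6%) in the D7 GLI1 list, 17 (44.7%) in the D7 control list and 16 (42.1%) at D5, against 67.2%, 64.9% and 68.2% of all 21887 genes. Most Hox genes are short and crowded, so neighbours share the space from which a summit can be assigned. The gene counts are not corrected for that, and the density of regions along the clusters was not compared with that of the genome.

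The median fold of Hox regions was 3.86 in the D7 GLI1 list, 4.14 in the D7 control list and 5.15 at D5, while the medians of all regions were 5.44, 6.12 and 5.81. In the D7 GLI1 list 28 of 38 Hox regions lay below that list's median, in the D7 control list 23 of 29 and in the D5 list 14 of 24. A fold of 10 or more was reached by 3 Hox regions with GLI1 (7.89%, all regions 32.0%), 2 in the D7 control list (6.90%, all regions 35.1%) and 3 at D5 (12.5%, all regions 16.1%). In bulk samples a site open in fewer cells and a site less open in every cell cannot be told apart. Wide regions were also few. In each D7 list 2 Hox regions were at least 1000 bp wide, where 23.1% of all D7 GLI1 regions and 24.3% of all D7 control regions were.

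A region was present in every list for 11 genes: Hoxa3, Hoxa5, Hoxa13, Hoxb1, Hoxb3, Hoxc6, Hoxc13, Hoxd1, Hoxd3, Hoxd8 and Hoxd13. Another 12 were assigned none in any list. They were Hoxa2, Hoxa6, Hoxa7, Hoxa10, Hoxa11, Hoxb5, Hoxb8, Hoxc5, Hoxc11, Hoxd4, Hoxd11 and Hoxd12, of which 5 are posterior, 5 central and 2 anterior. A region counted under a neighbour still came within 250 bp of an end of Hoxa6 in the D7 control and D5 lists. The same was true of Hoxb8 at D5. The map of the clusters shows the stretches without a summit. In the Hoxa cluster no member summit lay between the one just before Hoxa9 and Hoxa13, a gap of 39.1 kb in the D7 GLI1 list and 38.2 kb in the D7 control list that took in Hoxa10 and Hoxa11, and at D5 the gap began at the Hoxa5 start and spanned 56.3 kb. In the Hoxb cluster the longest gap, between the summits nearest Hoxb13 or Hoxb9 and the middle of the cluster, was 76.6 kb with GLI1 and 66.2 kb in the D7 control list. The Hoxd cluster was the most densely occupied, with 10.3 regions inside it per 100 kb in the D7 GLI1 list, 8.25 in the D7 control list and 7.22 at D5. Hoxc was the least so in both D7 lists, at 3.46 with GLI1 and 1.73 in the D7 control list, and Hoxb at D5, at 1.72. None of the 5 miRNA hairpins of the miR-10 and miR-196 families inside the clusters overlapped a region. The nearest region to one of these lay 1.14 kb from Mir10a in the D7 GLI1 list.

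**Figure D2:**
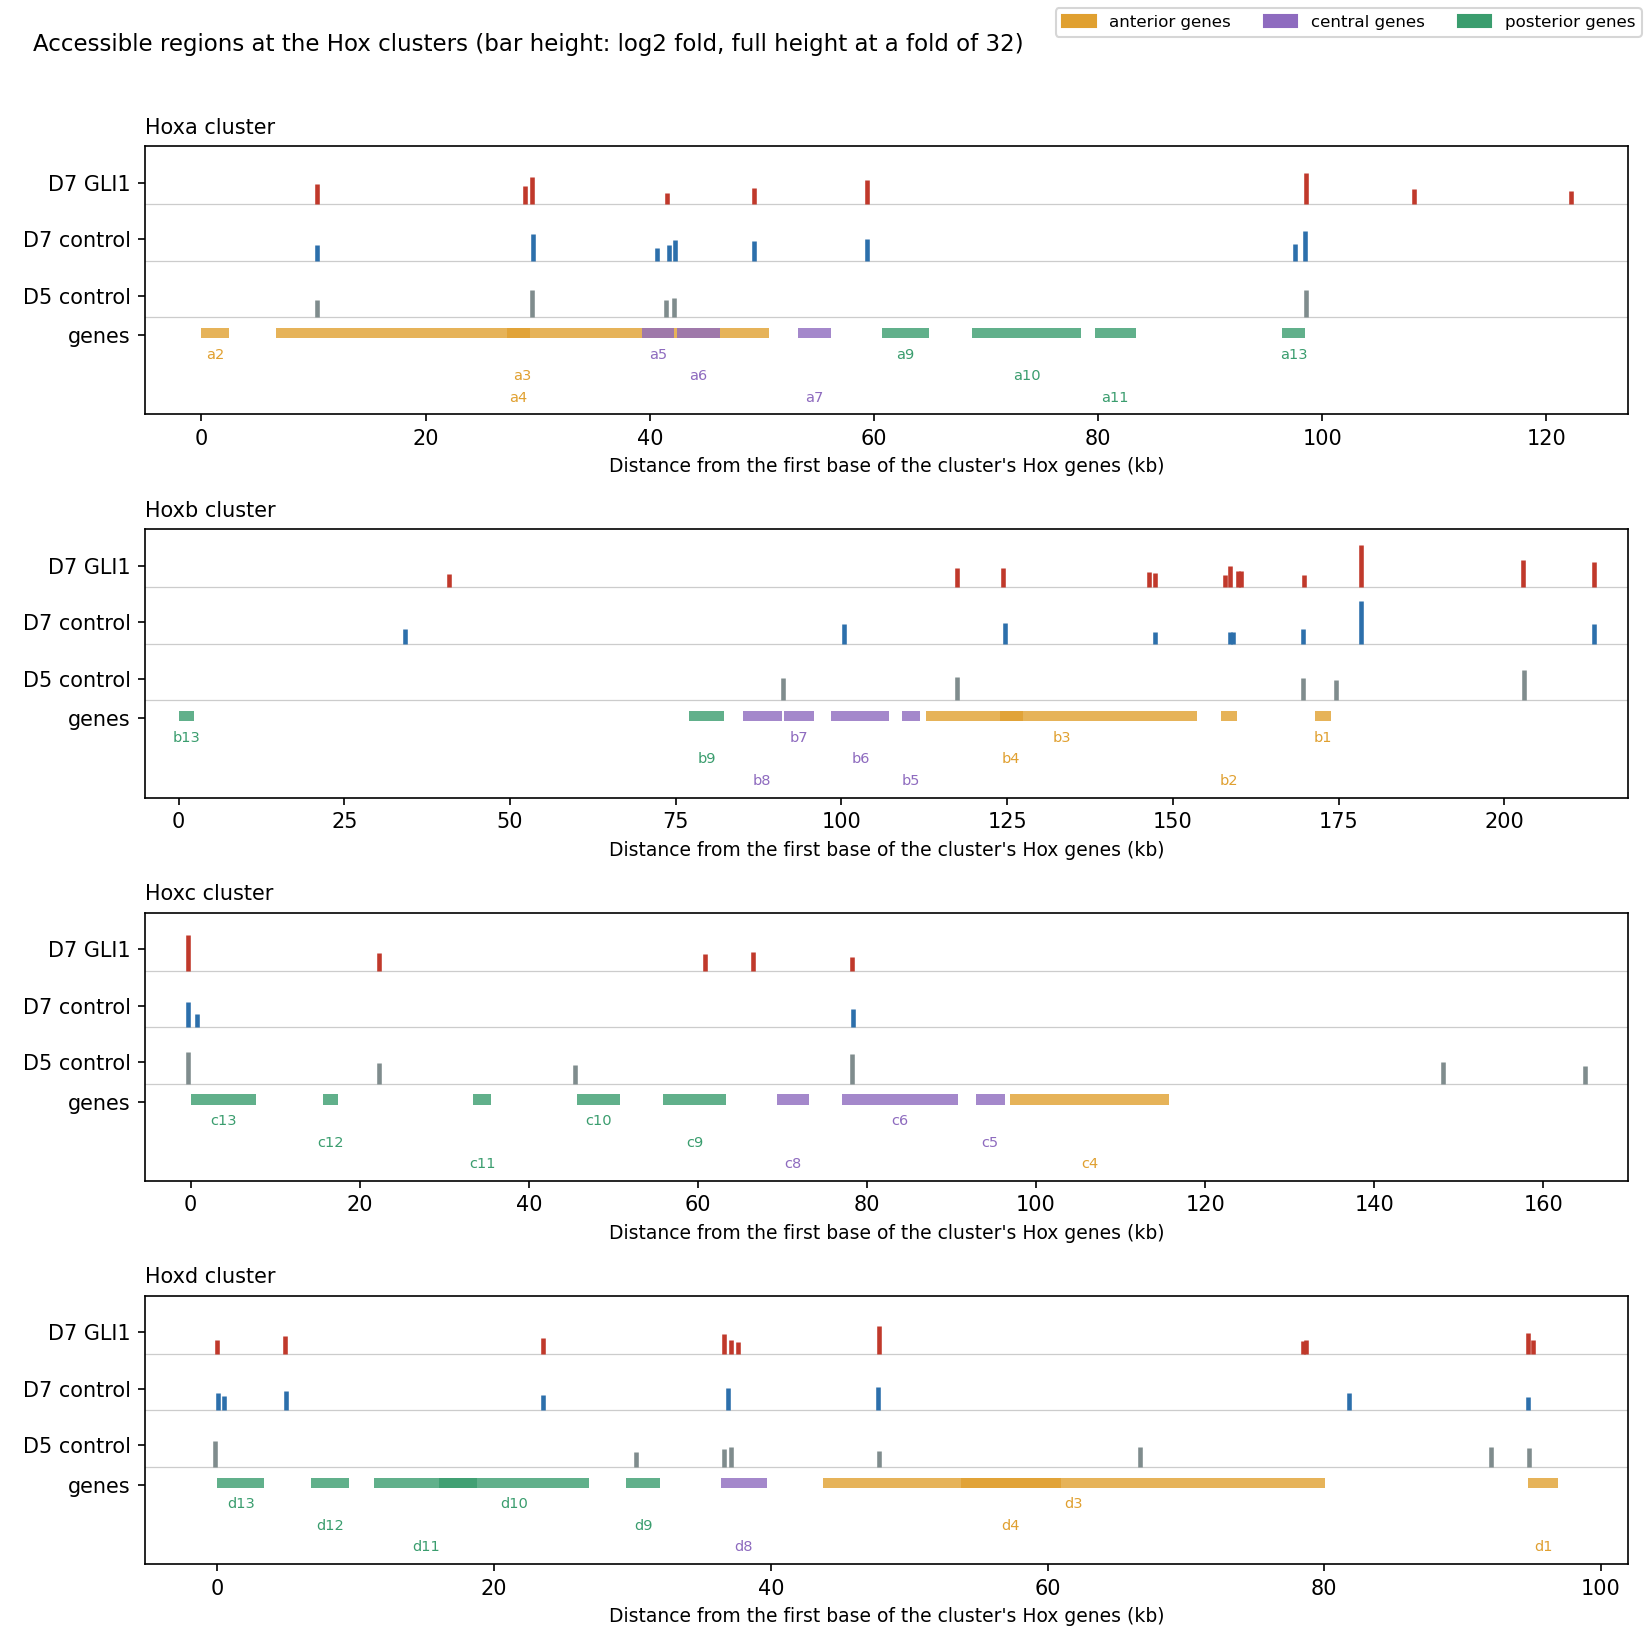
Accessible regions of the 3 lists along the 4 Hox clusters, by the distance of each summit from the first base of the cluster's listed genes (x axis, kb); bar height is the log2 fold, and the lowest row shows gene intervals, coloured as anterior, central or posterior. The tall bars beside Hoxb1, present in both D7 rows and not in the D5 row, and the empty stretch from Hoxa9 to Hoxa13 stand out.

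By position along the body axis, anterior genes held the most regions per gene, a count not corrected for gene length. The longest intervals are anterior, those of Hoxa3 (44.0 kb), Hoxb3 (40.8 kb) and Hoxd3 (36.3 kb), while the longest posterior one, Hoxd10, spans 10.8 kb. In the D7 control list 10 anterior and 5 posterior regions had their summit inside the gene. In the D7 GLI1 list the 11 anterior genes had 21 regions, the 11 central genes 6 and the 16 posterior genes 11. In the D7 control list these numbers were 14, 5 and 10, and in the D5 list 12, 6 and 6. Held to the same number of peaks as the D5 list, the D7 control list had 8 anterior and 6 posterior regions. Genes with a region were 8, 7 and 6 of 11 anterior genes in the D7 GLI1, D7 control and D5 lists, 4 of 11 central genes in each, and 8, 6 and 6 of 16 posterior genes. The median fold of posterior regions was 3.86 with GLI1, 3.96 in the D7 control list and 6.73 at D5, and that of anterior regions 4.21, 4.41 and 5.15 in the same order.

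The strongest Hox region of the series lay past Hoxb1, a gene of hindbrain identity that is also active in second heart field progenitors. It was at chromosome 11, 96372269 to 96373128 in the D7 GLI1 list and 96372255 to 96373264 in the D7 control list, 4.44 kb and 4.45 kb from the gene. Its fold was 30.7 with GLI1 and 31.5 in the D7 control list, and no D5 region overlapped it. Folds of both D7 lists came in whole multiples of a fixed step, so the reads piled up at a summit could be recovered as the fold divided by the step, minus 1. Both D7 summits carried 174 reads, with exact Poisson 95% limits on the fold of 26.3 to 35.6 with GLI1 and 27.0 to 36.5 in the control. The region was thus a feature of both D7 lists, and GLI1 and control differed there by less than the counting error.

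A second Hoxb1 region, 28.9 kb from the gene at chromosome 11, 96396883 to 96397625, had a fold of 8.95 in the D7 GLI1 list and none in the D7 control list. At D5 a region with a fold of 11.8 was already there (96397000 to 96397628). Among the 16 Hox regions found with GLI1 and not in the D7 control list, this was the single one that was strong, meaning a fold no lower than 5.04, or 2 times the weakest peak of the control list. Farther out, 39.6 kb from Hoxb1, the region spanning 96407321 to 96408342 reached 7.72 with GLI1 (limits 5.64 to 10.3) against 4.86 in the D7 control list (3.24 to 7.04). It was the farthest member of either D7 list, and no region had a Hox gene as its nearest beyond the 100 kb limit. Before the gene, at 1.70 kb in the D7 GLI1 list, a region with a fold of 2.81 stood beside one of 3.24 in the D7 control list and 6.34 at D5. That control region had a second summit, 11 bases from the GLI1 one, with a fold of 2.70.

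The other anterior genes of the Hoxb cluster carried several low regions in the D7 GLI1 list. Hoxb2, a hindbrain gene, had 4 with GLI1, 2 in the D7 control list and 0 at D5, and 3 of the 4 had no control counterpart. The one it shared, at 96352663 to 96353538, reached 5.44 with GLI1 (3.73 to 7.69) against 2.70 (1.56 to 4.41) in each of the D7 control regions it met, so the limits overlapped. Hoxb3 had 3 regions with GLI1, 1 in the D7 control list and 1 at D5. The one spanning 96311645 to 96311859 reached 4.91 with GLI1 and 6.49 at D5, and was not in the D7 control list. Hoxb4, known for its effect on blood progenitors, had 1 region in each D7 list, with a single summit of 4.91 with GLI1 and summits of 3.06 and 5.40 in the control, the lower lying 36 bases from the GLI1 summit. Together the 4 anterior Hoxb genes held 12 regions with GLI1, 7 in the D7 control list and 4 at D5, more than any other block of this kind with GLI1.

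Anterior genes of the other clusters held 4 regions at Hoxa, 0 at Hoxc and 5 at Hoxd with GLI1, against 4, 0 and 3 in the D7 control list and 2, 2 and 4 at D5. Inside the Hoxa3 interval and next to Hoxa4, the stretch at chromosome 6, 52191781 to 52192263 carried a fold of 8.78 with GLI1, 8.46 in the D7 control list and 8.66 at D5. Hoxa3, which is needed for the thymus and parathyroid, had a further region at 52172568 to 52172932 with 5.27, 3.42 and 4.0 in the same order. Hoxd3, a gene of neck vertebrae, had at chromosome 2, 74715758 to 74716176 a fold of 9.83 with GLI1 (7.45 to 12.7), 6.48 in the D7 control list (4.57 to 8.94) and 3.59 at D5. At the Hoxd1 start, inside the promoter printed above, the folds were 5.62 with GLI1 (3.87 to 7.90), 3.06 in the D7 control list (1.83 to 4.86) and 4.49 at D5. Hoxc4 had no D7 region in either list, but 2 at D5, 32.5 kb and 49.2 kb from the gene, with folds of 5.82 and 4.04.

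Central genes had the lowest median fold with GLI1, at 2.98, against 4.50 in the D7 control list and 4.68 at D5. These medians rest on 6, 5 and 6 regions, of which Hoxd8 gave 3, 1 and 2. The region at the Hoxa5 start entered the D5 median only. At the Hoxa5 start, a gene of lung and neck development, the D7 control list had a region at chromosome 6, 52204484 to 52204807 with a fold of 5.40 (3.68 to 7.68), its summit 44 bases before the start site. The D5 list had one at 52204466 to 52204674 with a fold of 4.55, and the D7 GLI1 list had none over that window. The control summit lay just outside Hoxa5 and inside the Hoxa3 interval, so the rule counted this region under Hoxa3, an anterior gene. Of the Hox regions missing with GLI1 this was the single strong one, the bar here being 4.91, or 2 times the weakest peak of the D7 GLI1 list. Inside Hoxa5 a second region had a fold of 2.46 with GLI1, the lowest of that list, against 3.6 in the D7 control list and 4.07 at D5. Hoxc6, a thoracic and forelimb-level gene, had a fold of 2.98 with GLI1, 4.50 in the D7 control list and 11.2 at D5, the third-highest Hox fold of the D5 list. Hoxd8 had 3 separate regions with GLI1, with folds of 4.91, 2.98 and 2.63 in the order of the chromosome, against a single D7 control region of 979 bp with 3 summits of 6.12, 3.60 and 4.14 in that order. Each GLI1 fold was the lower beside its nearest control summit, and the limits overlapped in each pair. Hoxb6 had a region in the D7 control list alone (4.86), Hoxb7 at D5 alone (6.18) and Hoxc8 with GLI1 alone (4.56).

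In the D7 GLI1 list posterior genes held the next strongest regions after Hoxb1, at the ends of the clusters. Hoxc13, a gene of hair and nails, had a region that covered an end of the gene, at chromosome 15, 102920564 to 102921794 with GLI1. Its highest summit with GLI1 lay 0.251 kb outside the gene. The highest fold was 17.4 with GLI1, 7.38 in the D7 control list and 13.4 at D5. The reads at these summits were 98 with GLI1 and 40 in the control, and the limits on the fold, 14.1 to 21.1 and 5.32 to 9.98, did not overlap. A second summit of the same region went the other way, with a fold of 2.98 with GLI1 (1.78 to 4.74) against 5.58 in the D7 control list (3.82 to 7.89), where the limits overlapped. Among the 22 regions shared by the D7 lists, the higher Hoxc13 summit was the single one whose limits were apart. Hoxa13, a gene of digits and the urogenital tract, had a region over its start with a fold of 12.5 with GLI1 (9.75 to 15.7), 10.8 in the D7 control list (8.26 to 13.9) and 8.66 at D5. Hoxd13, which also acts in digits, had 2.98 with GLI1, 4.14 in the D7 control list and 8.03 at D5 over its promoter window. The D5 region (chromosome 2, 74667908 to 74668124) and the D7 control region (74668155 to 74668360) lay side by side without touching, so they counted as closed and opened, while the D7 GLI1 region (74667977 to 74668771) overlapped both. Hoxa9, a gene of blood progenitors, had a region 1.27 kb outside it with a fold of 7.20 with GLI1 against 5.94 in the D7 control list, absent at D5. Hoxd10, a gene of lumbar motor neurons, had 3.51 with GLI1 and 3.6 in the D7 control list over its promoter window. Hoxc12 had a region with GLI1 (4.04) and at D5 (5.43) that the D7 control list lacked. Hoxc9 and Hoxb9 were assigned a region with GLI1 alone (3.86 and 2.98), as was the anterior gene Hoxa4 (4.21). Hoxa4 was not open with GLI1 alone, however. In every list a stronger region counted under Hoxa3 came within 250 bp of an end of Hoxa4. Its fold was 8.78 with GLI1, 8.46 in the D7 control list and 8.66 at D5. The Hoxb9 region lay 36.2 kb from the gene, toward Hoxb13, and had 16 reads at its summit. Hoxb13 had one in the D7 control list alone (3.24), with 17 reads, in the same stretch between the genes and 31.9 kb from Hoxb13. Hoxc10 and Hoxd9 had one at D5 alone (4.49 and 3.34).

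**Figure D3:**
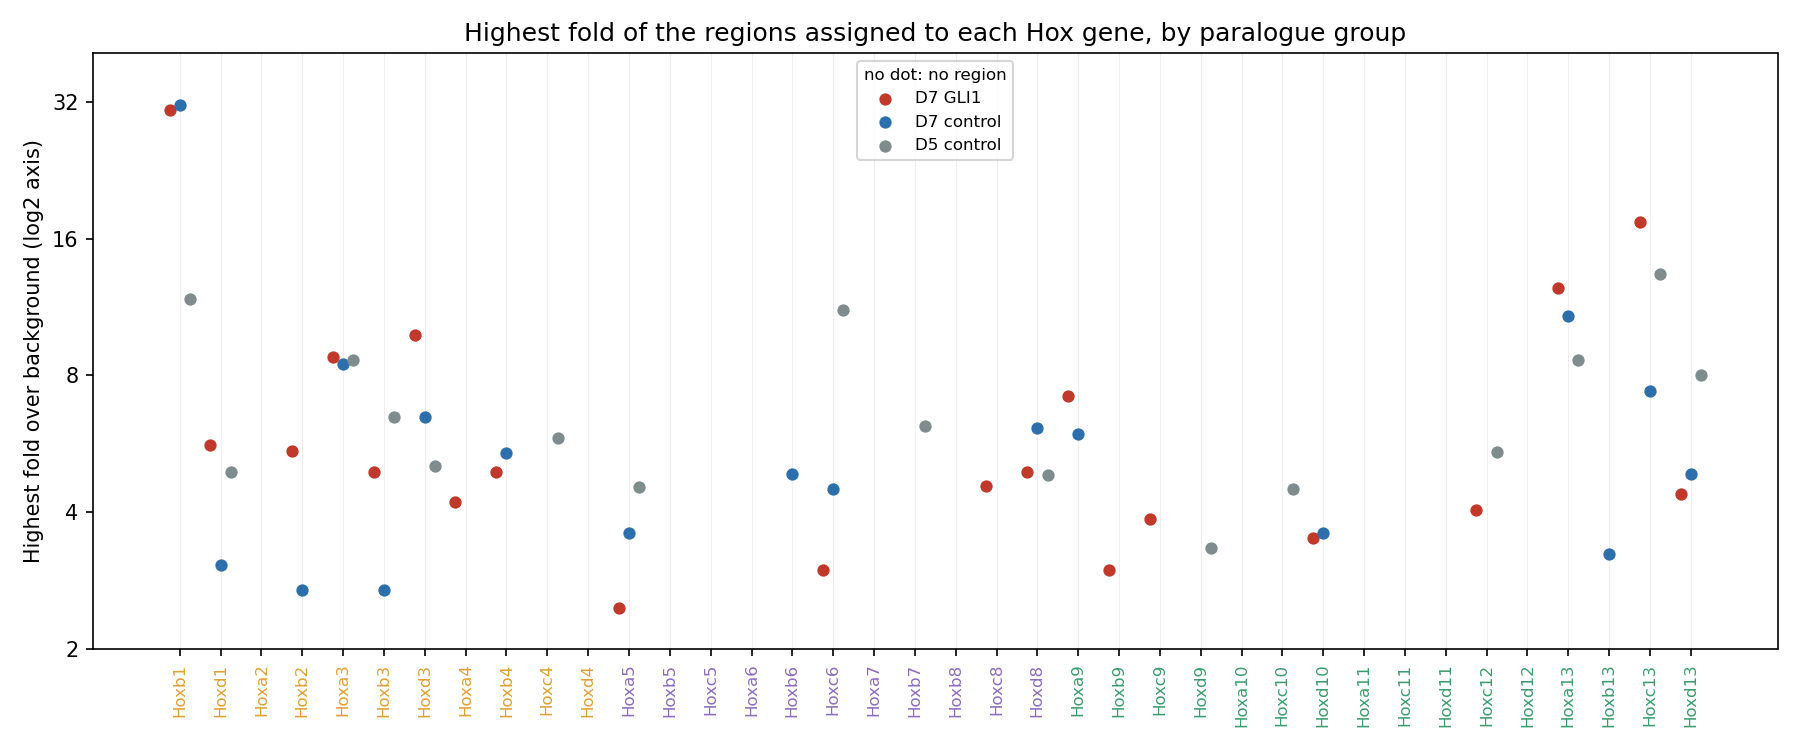
Highest fold over background (y axis, log2 scale) of the regions assigned to each of the 38 Hox genes, ordered by paralogue group from anterior (left) to posterior (right), with 1 dot per list. Hoxb1 is highest in both D7 lists at 30.7 and 31.5, Hoxc13 follows with 17.4 with GLI1, and genes without a dot were assigned no region in that list.

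Induced GLI1 cells were set against untreated cells of D7 to ask where GLI1 changed access to chromatin. A region is called gained when it overlaps no D7 control region by at least 1 base, and lost in the opposite case. Of 38 Hox regions with GLI1, 16 were gained (42.1%, 27.9 to 57.8), and 39.0% of all D7 GLI1 regions were. Of 29 Hox regions in the D7 control list, 7 were lost (24.1%, 12.2 to 42.1), and 31.6% of all were. Both backgrounds fall inside the Hox intervals, so neither share stands as a result about the Hox genes. The D7 GLI1 list is also the longer, with a background 3.11% higher in reads per base, and with every list held to the same 48177 peaks the gained regions numbered 10 against 7 lost.

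Gained Hox regions were low. Their median fold was 3.69 with a range of 2.81 to 8.95, against a median of 3.86 over all 16766 gained regions, and 1 of 16 was strong (6.25%) where 23.2% of all gained regions were. The 7 lost ones had a median of 3.78 against 3.96 for all, and 1 of 7 was strong (14.3%) where 24.5% of all lost regions were. A D5 region overlapped 3 of the 16 gained (18.8%, all gained regions 13.5%) and 1 of the 7 lost (14.3%, all lost regions 8.95%). The 3 were those of Hoxb1, Hoxb3 and Hoxc12 described above, and the 1 was that at the Hoxa5 start.

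By cluster, gained regions were 3 of 9 at Hoxa, 7 of 13 at Hoxb, 3 of 5 at Hoxc and 3 of 11 at Hoxd. Lost regions were 3 of 9 at Hoxa, 2 of 9 at Hoxb, 1 of 3 at Hoxc and 1 of 8 at Hoxd. At Hoxb, 6 of the 7 gained regions lay at anterior genes, which had no lost region. Along the axis, 10 of 21 anterior regions were gained (47.6%, 28.3 to 67.6), 1 of 6 central (16.7%, 3.01 to 56.4) and 5 of 11 posterior (45.5%, 21.3 to 72.0). Lost were 2 of 14 anterior regions (14.3%, 4.01 to 39.9), 2 of 5 central (40%, 11.8 to 76.9) and 3 of 10 posterior (30.0%, 10.8 to 60.3). The intervals of the anterior and posterior genes overlapped in both classes, and their difference was not tested.

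**Figure D4:**
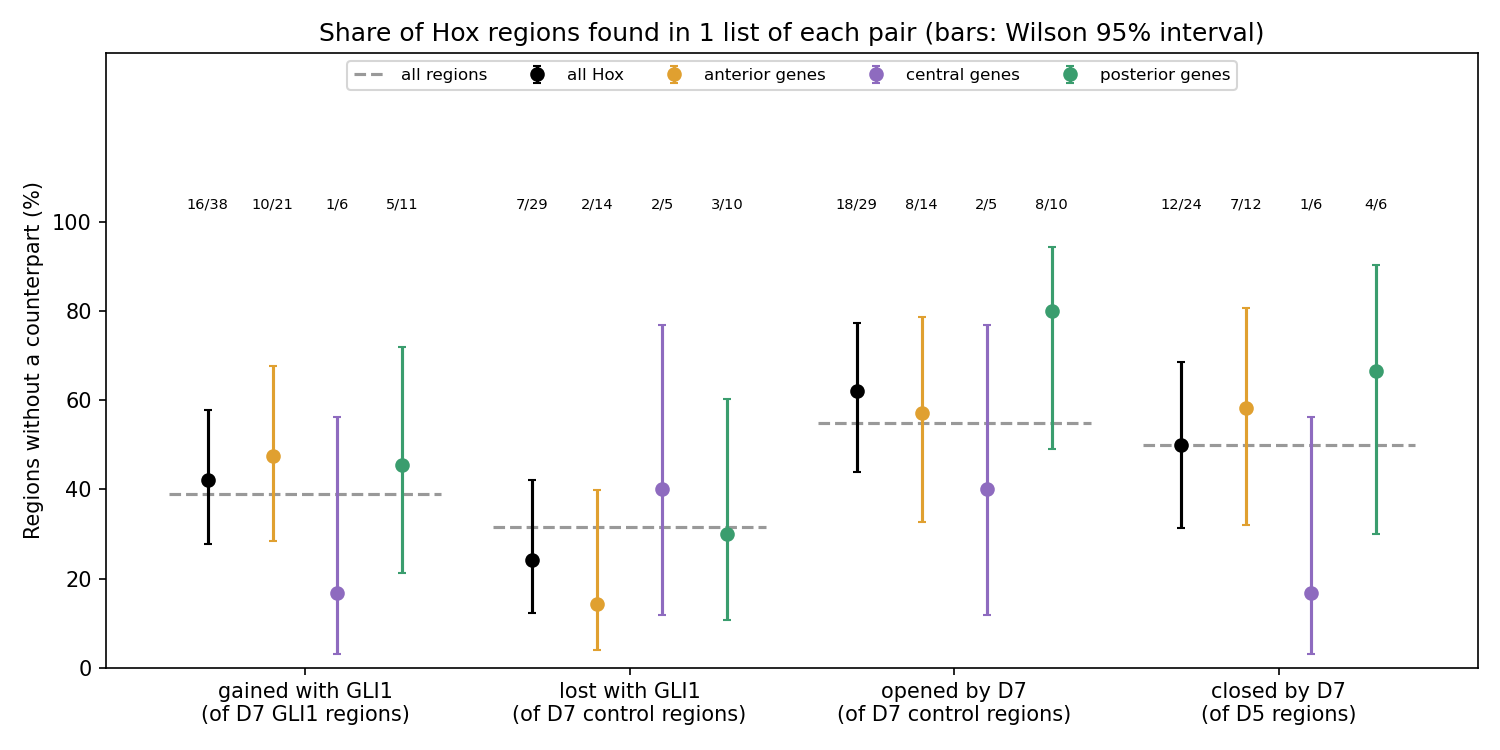
Share of Hox regions without a counterpart in the other list (y axis, percent) for the 4 comparisons, for all Hox genes and for anterior, central and posterior genes; bars are Wilson 95% intervals, counts stand above, and dashed lines mark all regions of the same list. Gained Hox regions are at 42.1% beside a line at 39.0%, and opened ones at 62.1% beside a line at 55.0%.

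Each of the 22 regions that the D7 lists shared was first described by the highest summit of either list. On that measure 10 had the higher fold with GLI1 and 12 in the control. The median ratio of folds, GLI1 over control, was 0.975, against 1.05 over all 26277 shared regions, of which 56.2% were above 1. The values are set side by side as a description, and the limits overlapped for all but Hoxc13. The 5 highest ratios were at Hoxc13 (2.35), Hoxb2 (2.02), Hoxd1 (1.84), the far Hoxb1 region (1.59) and Hoxa3 (1.54). The 5 lowest were 2 regions of Hoxd8 (0.430 and 0.488), Hoxc6 (0.663), Hoxa5 (0.683) and the Hoxd13 start (0.721). Both Hoxd8 values divide by a control summit that belongs to another place in the region. Ratios were above 1 at 7 of 11 anterior regions (median 1.17), at 0 of 5 central regions (median 0.663) and at 3 of 6 posterior regions (median 1.06). The central count rests on few loci, since 3 of the 5 pair with the same Hoxd8 control region. A second pairing kept the highest GLI1 summit of each region and took the control summit nearest to it. That control summit could be a lower one, so a ratio could rise but not fall. By this pairing 4 of the 22 GLI1 summits had another ratio. Those of Hoxd8 became 0.636 and 0.829, so that the second left the 5 lowest and the Hoxa3 region at 52211600 (0.731) joined them. The Hoxb4 region had 1.61, against 0.910 by the highest summits, and took the place of Hoxa3 among the 5 highest. The Hoxb1 region before the gene had 1.04, against 0.867. By nearest summits 12 of 22 ratios were above 1 and the median was 1.04, against 1.07 over all shared regions, so the direction of the Hox median depends on the pairing. Anterior regions then had 9 of 11 above 1 (median 1.52), central regions 0 of 5 and posterior regions 3 of 6.

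**Figure D5:**
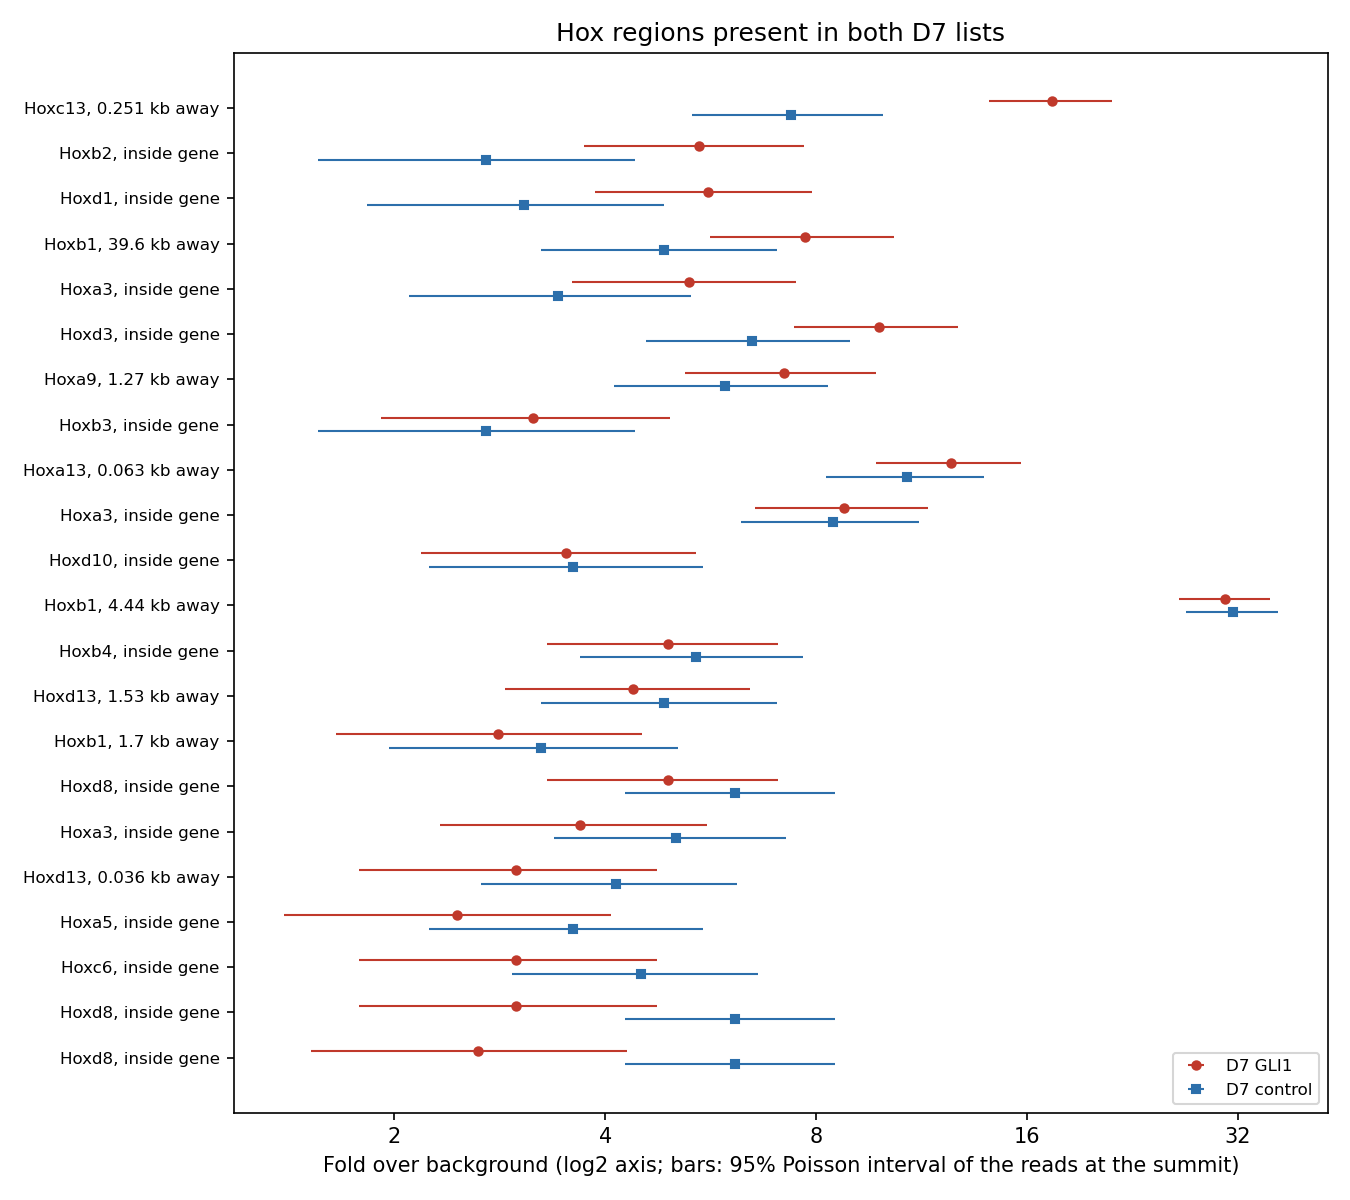
Fold over background (x axis, log2 scale) of the highest summits of the 22 Hox regions present in both D7 lists, with D7 GLI1 above D7 control in each row; bars are exact Poisson 95% limits from the reads at the summit, and the rows run from the highest to the lowest ratio. The limits separate only at Hoxc13, with 17.4 against 7.38, and the highest pair, Hoxb1 at 30.7 and 31.5, overlaps almost fully.

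The comparison of D7 with D5 control followed the clusters through normal differentiation. A D7 control region is called opened when no D5 region overlaps it, and a D5 region closed in the opposite case. Of 29 D7 control regions 18 were opened (62.1%, 44.0 to 77.3), and 55.0% of all were. Of 24 D5 regions 12 were closed (50.0%, 31.4 to 68.6), and 50.0% of all were. Both Hox shares lie near their backgrounds. With the lists held to the same number of peaks the order of these counts turned, to 10 opened against 16 closed. The lists differ in the number of pooled libraries and in calling, since the D5 peaks were called against a local background and reach down to 124 bp while D7 peaks start at 200 bp, and the share of this in any single difference was not tested.

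The opened regions with the highest fold were the Hoxb1 region described first (31.5), Hoxa9 (5.94), Hoxb4 (5.40) and Hoxa3 at 52211568 to 52211854 (5.04). Next came 3 of equal fold (4.86), at Hoxb6, between Hoxd13 and Hoxd12, and 39.7 kb from Hoxb1, and then the Hoxd13 start (4.14). Without Hoxb1 the opened regions were thus low. Closed regions with the highest fold were the distal Hoxb1 region (11.8), the Hoxd13 start (8.03), Hoxb3 (6.49), Hoxb7 (6.18), the nearer Hoxc4 region (5.82), Hoxc12 (5.43), a Hoxb1 region 0.737 kb from the gene at 96368805 to 96369379 (5.24) and Hoxd3 at 74734854 to 74734977 (5.05). Around Hoxb1, then, 2 regions were opened and 2 closed, and 1 was in both lists.

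Hoxb and Hoxa stood at the ends of the range among clusters for closed regions. At Hoxb 8 of 9 D7 control regions were opened (88.9%, 56.5 to 98.0) and 4 of 5 D5 regions closed (80.0%, 37.6 to 96.4). At Hoxa 4 of 9 were opened (44.4%, 18.9 to 73.3) and 0 of 5 closed (0%, up to 43.4). At Hoxc 1 of 3 was opened and 4 of 6 closed, and at Hoxd 5 of 8 were opened and 4 of 8 closed. Every D5 region of Hoxa had a D7 control counterpart, while Hoxb kept 1 of 5. Along the axis, opened were 8 of 14 anterior, 2 of 5 central and 8 of 10 posterior regions, and closed were 7 of 12, 1 of 6 and 4 of 6. The intervals of these shares overlap between anterior and posterior genes, and so do those of the Hoxa and Hoxb clusters. No difference between them was tested.

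Taking the 3 lists as 51 distinct loci, 11 were in every list and 13 in the D7 GLI1 list alone. Both D7 lists shared 9 that D5 lacked. The D7 control list alone had 6 and the D5 list alone 8. The D7 GLI1 and D5 lists shared 3 loci that the D7 control list lacked, and the D7 control and D5 lists shared 1 that the D7 GLI1 list lacked. These patterns were not counted over all loci, so none of the counts is read as a trait of the Hox genes.

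Genes that act with or on the clusters were counted from lists of known roles. The 9 TALE homeodomain genes, the DNA-binding partners of Hox proteins, had 78 regions with GLI1, 69 in the D7 control list and 56 at D5, with 28 gained (35.9%), 16 lost (23.2%), 40 opened (58.0%) and 24 closed (42.9%). Over all regions these shares were 39.0%, 31.6%, 55.0% and 50.0%, and no list is read as standing apart from them. All 9 had a region in each list, and Meis1 had 8 gained and 3 lost. The 6 factors that bind Hox clusters had 15 regions with GLI1, 13 in the D7 control list and 9 at D5 (6 gained, 2 lost, 8 opened and 3 closed, or 40.0%, 15.4%, 61.5% and 33.3%). Among them Cdx1, a caudal factor that activates central Hox genes, had 3 regions with GLI1 and 0 in each control list, and Cdx4 had none in any. The 7 retinoic acid genes, which make, degrade or sense the signal, had 46 regions with GLI1, 46 in the D7 control list and 31 at D5 (23 gained, 19 lost, 31 opened and 13 closed, or 50.0%, 41.3%, 67.4% and 41.9%).

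The 8 Trithorax and Polycomb genes had 11 regions with GLI1, 19 in the D7 control list and 9 at D5. Of these, 0 were gained, 8 lost (42.1%), 11 opened (57.9%) and 2 closed (22.2%). Over all regions the shares were 39.0% gained, 31.6% lost, 55.0% opened and 50.0% closed. Most of these lost and opened regions were at a single gene. Of the 8 lost, 7 were nearest to Eed, a core subunit of the Polycomb complex that methylates histone H3, and so were 8 of the 11 opened. Eed had 2 regions with GLI1, 9 in the D7 control list and 1 at D5. The 16 non-Hox neighbours of the clusters had 49 regions with GLI1, 43 in the D7 control list and 32 at D5 (20 gained, 12 lost, 22 opened and 7 closed, or 40.8%, 27.9%, 51.2% and 21.9%). Of these neighbours, 15 of 16 had a region with GLI1, where 20 of 38 Hox genes did. Evx1, the homeobox gene next to Hoxa13, had 2 regions with GLI1, 1 in the D7 control list and 5 at D5.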

How the data were processed

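Open chromatin was measured by ATAC-seq in 8 libraries of 3 groups. Reads were aligned to mm10, and the tools listed are MACS2 2.1.1, Picard, SAMtools 1.5 and Bowtie2 2.3.2, per the submitters' processing notes. The authors deposited 1 pooled peak list per group. The deposited fold is a ratio over background, the deposited −log10 q grades each peak, the deposited score is 10 times that value, and the other deposited column is the summit offset. D7 folds were whole multiples of 0.176 (GLI1) and 0.180 (control), within 0.02 steps, so these lists have a constant background, at 4.70 and 4.56 reads per base. The D5 list has a local one. Library depths were not used here.

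Own code (Python 3.11.15, pandas 2.3.3, scipy 1.17.1), tested on simulated regions, merged overlapping peaks, assigned summits to the nearest of 21887 RefSeq genes (the shorter at ties) and compared lists by overlap of at least 1 base. Named regions are the 10 highest folds per list, strong gained or lost regions, the 8 highest opened and closed, and the 5 highest and lowest ratios. Single genes with few regions, and examples from the other lists, were added after their values were seen. The members and gene lists were chosen with earlier results of these data known. Alternatives changed the q threshold, overlap, distance, assignment, list length, grouping, ties and summit pairing.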

Additional observations from a re-analysis of the deposited data

How the results depend on the processing

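Over 6 counts (gained, lost, opened and closed Hox regions, and D7 control regions at anterior and posterior genes), 29 of 36 alternative values stayed within 1.5 times the reported count. With a −log10 q of at least 5, closed regions numbered 7, anterior regions 8 and posterior regions 6. With lists cut to an equal 48177 peaks, gained regions numbered 10, opened 10, anterior 8 and posterior 6. Gained outnumbered lost under all 6 alternatives. The same order held over all regions, with 16766 gained and 12271 lost and the D7 GLI1 list the longer, so it is not particular to the Hox genes. Opened outnumbered closed under 5 of 6, and with equal list lengths the order turned, to 10 opened against 16 closed. The equal-length lists keep fewer D7 peaks by construction. The alternative of the longest gene at ties was added once the data had been seen, and it changed no count by over 1.5 times.

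No paired analysis was possible because the libraries of a group were pooled in its list, which also kept any single library from being dropped. The median Hox fold was 3.86 with GLI1 and 4.14 in the D7 control list, where the lowest folds of these lists were 2.46 and 2.52, so presence or absence of a low D7 region rests on few reads, as 13 at the lowest summit with GLI1. Pairing each GLI1 summit with its nearest control summit, also added once the data had been seen, left 1 shared region with limits apart, gave 12 in place of 10 higher with GLI1, and turned the ratios of Hoxb1 (0.867) and Hoxb4 (0.910) to 1.04 and 1.61. The reversed ratios lie within overlapping limits, and this pairing could raise a ratio but not lower it.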
